A study of Saccharomyces cerevisiae with 3 samples.

Results

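The genes described here are 7 transcription activators of budding yeast, TYE7, GCR1, GCR2, RAP1, FHL1, IFH1 and SFP1, which are known to switch on the genes of glycolysis, of ribosomal proteins, or both. They were picked by gene symbol from the 5574 genes named on the array, with earlier results of these data known, so their differences between arrays are given as a description and without a test. All 7 had a value on the G0 and Y5 arrays and 6 on Y10, over 10 spots in all. The study, on Saccharomyces cerevisiae switched fast from a fermentable to a nonfermentable carbon supply, comprised 3 samples named G0, Y5 and Y10. The labels explain neither the letters nor the numbers, and neither strain nor medium is given in the sources used here. Each sample was 1 two-colour array, with total RNA of the mRNP fraction (messenger ribonucleoprotein, the mRNAs outside polysomes) in Cy3 and of the Poly fraction, taken to mean polysomes, in Cy5. There was 1 array per group, without replicate or dye swap, so no difference below could be set against a spread between cultures or hybridisations.

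In glucose-grown yeast the enzymes of glycolysis and the ribosomal proteins are among the most heavily expressed products of the genome, and a small set of activators drives both groups. Rap1 binds upstream of glycolytic and of ribosomal protein genes and brings in partners that differ between them. At glycolytic genes these are Gcr1, which binds DNA next to Rap1, and Gcr2, which binds Gcr1, while Tye7 is a separate basic helix-loop-helix activator of the same genes. At ribosomal protein genes Rap1 helps to place Fhl1, a forkhead-type factor on which the coactivator Ifh1 docks when nutrients are plentiful. Sfp1, a zinc finger protein that enters the nucleus in well-fed cells, activates ribosomal protein and ribosome biogenesis genes. Whether an mRNA sits in polysomes or in the mRNP pool reflects its translation, not its amount, and the values below concern the mRNAs of the activators themselves.

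A value is the log ratio of the channels on 1 array, minus the median of that array, averaged over the spots of a gene. It was read as log2, and its direction as likely polysome (Cy5) over mRNP (Cy3). That direction rests on the usual red-over-green convention and on GCN4, whose mRNA is poorly translated while amino acids are plentiful and which read −0.93 on G0. The medium is not given, so a plentiful supply on G0 is assumed, and GCN4 is 1 gene with 1 spot. The titles name the mRNP fraction first, which does not settle it, and every sign below turns should the direction be the opposite. Because each array is centred, a shift of all mRNAs together cannot be seen. The Y10 rows were numbered differently from the others, and all Y10 values use a renumbering inferred from the data, under which Y10 correlated with Y5 at r = 0.463 across spots, against 0.0155 as deposited. With G0, renumbered Y10 correlated at r = 0.211, against 0.0374 as deposited. The 2 spots of a gene gave the technical error of 1 spot, with SDs of 0.453 (G0, 882 genes), 0.402 (Y5, 886 genes) and 0.436 (Y10, 453 genes). Differences between arrays had a 1-spot SD of 0.452 from G0 to Y5, 0.632 from G0 to Y10 and 0.559 from Y5 to Y10. In these differences the 2 spots of a gene correlated at r = 0.543, 0.268 and 0.197, in the same order.

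TYE7 (YOR344C) lay below the median of its array on G0 and above it on both later arrays. Its log2 ratio read −1.42 on the G0 array, 2.11 on Y5 and 0.93 on Y10. G0 was thus the low array, Y5 the high one and Y10 in between, and both gaps were wider than the technical SD. On G0 it was the 53rd lowest of 5548 genes, on Y5 it lay at percentile 99.6 of 5563 genes and on Y10 at percentile 96.6 of 4446.

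The Y5 minus G0 difference of TYE7 was 3.53, the highest of 5546 genes (rank 3 with centring by sector or with the first spot of each gene alone), which corresponds to an 11.5-fold higher ratio of polysome to mRNP signal. Its Y10 minus G0 difference was 2.35, a 5.11-fold higher ratio and the fourth highest of 4427 genes. That rank was 1 after quantile normalization, 9 with the last 60 spots of each Y10 sector added, 14 with the arrays scaled to one spread and 194 with the Y10 rows as deposited. From Y5 to Y10 the difference was −1.17 (percentile 3.16 of 4435 genes), which fell short of 1 log2 unit with the arrays scaled to one spread (−0.80), quantile normalized (−0.81) or centred by sector (−0.95). Both differences from G0 use the same G0 spot, and TYE7 had 1 spot per array. Over the 12 rows on either side of that spot the medians were −0.30, 0.23 and 0.04 in the order G0, Y5, Y10, and the highest of these neighbours reached 1.79 on Y5 and 0.47 on Y10, below TYE7 on both arrays. On G0 the lowest neighbour lay at −2.06, below TYE7.

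**Figure D1:**
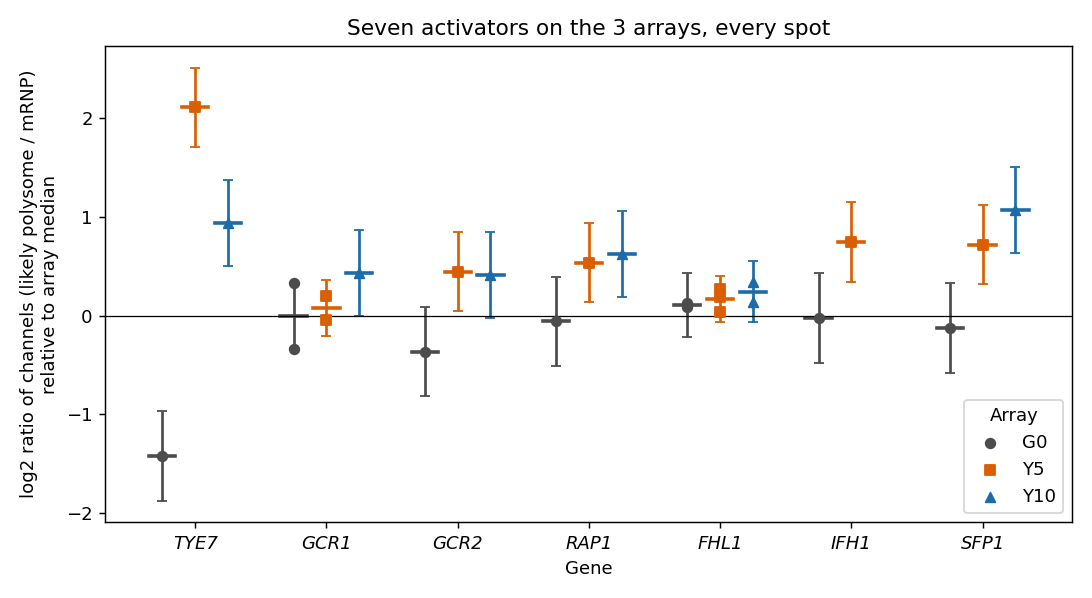
Log2 ratio of the channels relative to the array median (y axis) for the 7 genes (x axis) on G0 (circles), Y5 (squares) and Y10 (triangles). Points are single spots, bars the mean over spots, and error lines 1 technical SD of that mean from genes with repeat spots, not a spread between replicates. TYE7 runs from −1.42 to 2.11 and back to 0.93, and the other 6 genes stay between −0.37 and 1.07.

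GCR1 (YPL075W), the DNA-binding partner of Rap1 at glycolytic genes, was near the array median on G0 and Y5. On Y10 it lay at percentile 83.6 of 4446 genes. Its 2 spots read 0.33 and −0.34 on G0 and 0.20 and −0.04 on Y5, and on Y10 the second of these spots read 0.43. The gap of 0.668 between its G0 spots exceeded the median gap of 0.281 among genes with 2 spots, and it was wider than the gene's differences of 0.08 (Y5 minus G0) and 0.43 (Y10 minus G0). Taken within the second spot alone, the differences were 0.29 and 0.77. No departure of GCR1 from G0 was larger than the error between spots on Y5, and on Y10 the value within 1 spot was only a little above the technical SD.

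GCR2 (YNL199C), the coactivator that binds Gcr1, read −0.37 on G0, 0.44 on Y5 and 0.41 on Y10. Both later arrays lay above G0 and close to each other, with differences from G0 of 0.81 and 0.78 against technical SDs of 0.452 and 0.632. On Y5 minus G0 this was percentile 92.5 of all genes, short of the rule of size of 1 log2 unit used here to call a difference. By these averages GCR2 lay farther from its G0 value than GCR1 did, and TYE7 farther than either. For GCR1 the Y10 minus G0 average sets 1 spot against 2, and within its second spot the difference was 0.77, close to that of GCR2.

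RAP1 (YNL216W), shared by the glycolytic and ribosomal protein genes, read −0.06 on G0, 0.54 on Y5 and 0.63 on Y10. Again both later arrays were above G0, by 0.60 and 0.69, with 1 spot on each array and 0.09 between them. The Y10 difference was about as large as its technical SD of 0.632, and with centring by sector the differences were 0.37 and 0.29, both below the technical SDs.

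Of the ribosomal protein gene activators, FHL1 (YPR104C) differed from its G0 level by less than the error between spots. It had 2 values on G0 (0.13 and 0.09), 3 on Y5 (0.04, 0.27 and 0.19) and 2 on Y10 (0.14 and 0.34). The Y5 values overlapped those of both other arrays, and the Y10 values lay above both G0 values, by little. The differences were 0.06 for Y5 minus G0 and 0.14 for Y10 minus G0. FHL1 had the most spots of the 7, and its spots differed by at most 0.236 on any array.

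IFH1 (YLR223C), the coactivator docked on Fhl1, read −0.02 on G0 and 0.74 on Y5. The difference was 0.77, at percentile 91.5. With centring by sector it was 0.51. Its spot stands in the last place of its sector, beyond the rows that a sector has on Y10, so IFH1 has no Y10 value. On Y5 IFH1 stood on the higher side, and FHL1, the protein it docks on, did not. The technical SDs of the 2 differences were 0.452 and 0.320. Over the 12 rows on either side of the IFH1 spot the medians were −0.65 on G0 and 0.03 on Y5. Those rows were thus also higher on Y5, and the part of the place on the array in the IFH1 difference was not tested.

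SFP1 (YLR403W) was higher on both later arrays than on G0, reading −0.13 on G0, 0.72 on Y5 and 1.07 on Y10. Y10 was its highest array, unlike for TYE7. Its difference from G0 was 0.85 on Y5 (percentile 93.3) and 1.19 on Y10, a 2.29-fold higher ratio at percentile 96.5, and the step of 0.35 from Y5 to Y10 was within the technical SD of 0.559. SFP1 passed 1 log2 unit on Y10, and TYE7 on both later arrays, but with centring by sector the SFP1 difference was 0.91 and that of GCR2 was 1.12, so that GCR2 was called on Y10 in place of SFP1.

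The order of the levels changed between the arrays. On G0 it ran, from high to low, FHL1 (0.11), GCR1, IFH1 (−0.02), RAP1, SFP1, GCR2 and TYE7, and no neighbours except GCR2 and TYE7 differed beyond their combined technical SD (a step of 1.05 against 0.640). On Y5 TYE7 came first, followed by IFH1, SFP1, RAP1, GCR2, FHL1 (0.17) and GCR1 (0.08), and only the step from TYE7 to IFH1 was wider than that error (1.36 against 0.568). On Y10 SFP1 and TYE7 led, then RAP1, GCR1, GCR2 and FHL1 (0.24), with no step between neighbours beyond it. TYE7 went from last to first between G0 and Y5, and FHL1 from first to next to last.

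As a set, 7 of 7 genes had a Y5 minus G0 difference above 0, where 49.6% of all genes did, and 6 of 6 had a Y10 minus G0 difference above 0, where 48.0% did. With centring by sector FHL1 lay below 0 in both (−0.10 and −0.20). At least 1 log2 unit higher were 1 of 7 on Y5 (4.02% of all genes) and 2 of 6 on Y10 (6.51% of all genes), and 0 were lower by that much (10.5% and 12.1% of all genes). Under a reading as natural logarithms, IFH1, GCR2 and SFP1 would pass on Y5 too, and GCR2 on Y10. More of all genes would then pass as well. The median difference of the set was 0.77 on Y5 and 0.73 on Y10, beside −0.01 and −0.03 over all genes. The genes were chosen with these differences known and both share the G0 array, so nothing is read from these shares. Between Y5 and Y10, 4 of 6 were above 0 (50.3% of all genes), with a median of 0.08, 0 at least 1 higher (3.77%) and TYE7 alone at least 1 lower (5.30%).

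**Figure D2:**
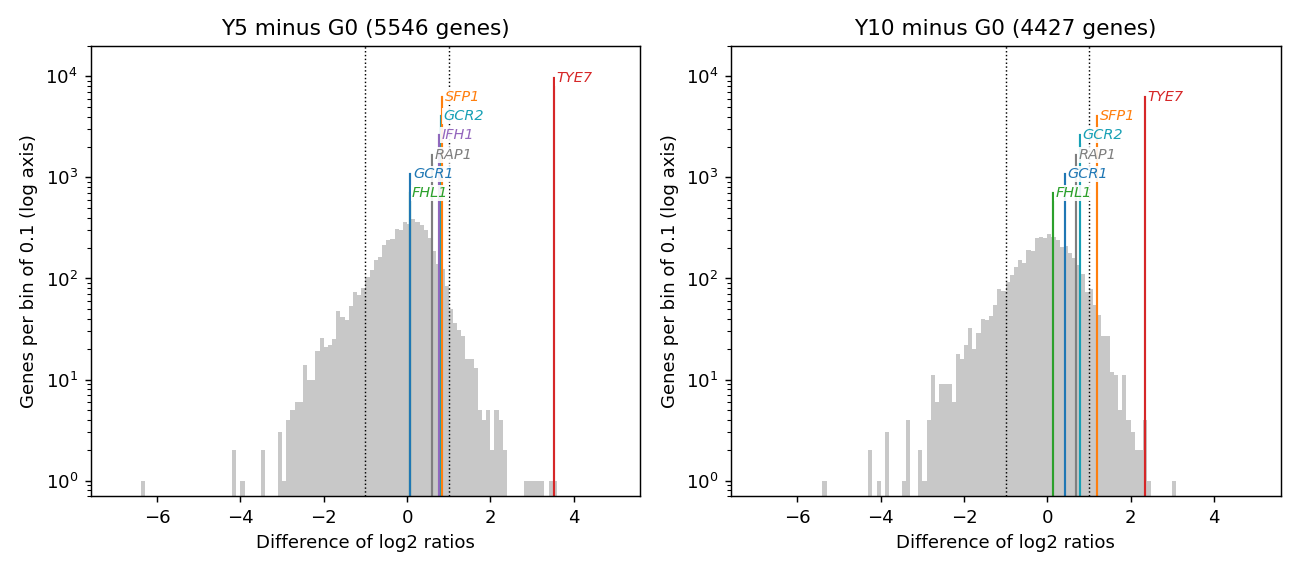
Histograms (grey, genes per bin of 0.1, log y axis) of the difference of log2 ratios for Y5 minus G0 (5546 genes) and Y10 minus G0 (4427 genes), with coloured lines at the 7 activators (6 on Y10) whose height carries no value. Dotted lines mark 1 log2 unit in either direction. TYE7, at 3.53 and 2.35, lies at the upper end of both, and the other activators lie between 0.06 and 1.19.

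For comparison, 29 of 30 other transcription activators were measured, among them Gcn4, Hsf1, Msn2 and Hap4. Their median Y5 minus G0 difference was 0.14, with 21 of 29 above 0 (49.6% of all genes). At least 1 log2 unit higher were 3 (4.02% of all genes), and 0 were lower by that much (10.5%). The 3 were GCN4 (2.26), which drives amino acid synthesis, HAP4 (1.11), which drives respiration, and MET4 (1.03), which drives sulfur amino acid synthesis. On Y10 minus G0 the median was 0.09, with 12 of 23 above 0 (48.0% of all genes) and 0 at least 1 higher (6.51%). SWI5, a cell cycle activator, was lower at −1.06, as were 12.1% of all genes by at least 1. GCN4 stood at 0.70 on Y10 minus G0, so that its Y10 minus Y5 difference of −1.55 was, like that of TYE7, a step back toward G0. The G0 value of GCN4 also served to read the direction of the ratios.

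The other members of the basic helix-loop-helix family differed less from G0 than TYE7. All 8 were measured on G0 and Y5, and TYE7 was the 1 gene at least 1 log2 unit higher, on Y5 and on Y10. INO2 and INO4, the paired activators of phospholipid synthesis genes, gave Y5 minus G0 differences of 0.76 and −0.76, and on Y10 minus G0 0.61 and −0.47. RTG1 and RTG3, the pair that signals from mitochondria to the nucleus, gave 0.70 and 0.45 on Y5 and 0.74 and 0.29 on Y10. PHO4, the activator of phosphate genes, was at −0.21 and −0.12, HMS1 at 0.47 and 0.18, and CBF1, which binds centromeres and methionine genes, at 0.41 on Y5. The genes of the 2 pairs thus lay on opposite sides of 0 for INO2 and INO4 and on the same side for RTG1 and RTG3, all by less than 1 log2 unit.

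Rap1 belongs to the general regulatory factors, abundant DNA-binding proteins that keep promoters open. Of these 7 genes, 4 lay above 0 on Y5 minus G0, with a median of 0.41 and 0 past 1 log2 unit. MCM1 was at 0.93, ABF1 and CBF1 at 0.41, REB1 at −0.03, TBF1 at −0.68 and HMO1 at −0.92. On Y10 minus G0, MCM1 was at 0.21, REB1 at −0.03, TBF1 at −0.21 and HMO1 at −1.07, while RAP1 was at 0.69. HMO1, an HMG-box protein found at ribosomal protein genes and ribosomal DNA, thus had the lowest difference of this list on both later arrays, and RAP1 the highest on Y10, where 5 of the 7 were measured (not ABF1 and CBF1). The proteins that join Rap1 at telomeres and silent loci stayed within 1 log2 unit: on Y5 minus G0, SIR2 read 0.53, RIF2 0.52, RIF1 0.03, SIR1 −0.06, SIR4 −0.09 and SIR3 −0.33. On Y10 minus G0, RIF2 read 0.74, SIR2 −0.05, SIR3 −0.11, SIR4 −0.24 and RIF1 −0.48. RIF2 was the 1 partner above 0 in both differences.

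The proteins that work with Fhl1, Ifh1 and Sfp1 showed no common direction. Among 16 other regulators of ribosomal protein and ribosome biogenesis genes the median Y5 minus G0 difference was 0.12. Of these, 10 lay above 0 (49.6% of all genes) and 1 was at least 1 log2 unit higher (4.02%). That gene was TOD6, a repressor of ribosome biogenesis genes, at 1.22 on Y5 and 0.68 on Y10, whereas its paralogue DOT6 was at −0.63 and −0.49. HMO1 was the 1 gene of 13 at least 1 lower on Y10, where the median was 0.06. CRF1, the corepressor that competes with Ifh1 for Fhl1, was at 0.01 and −0.18, and MRS6, which binds Sfp1, at 0.63 and 0.51. Ifh1 also joins casein kinase 2, Utp22 and Rrp7 in the CURI complex. Of those partners RRP7 was at 0.61, CKA2 at 0.50, CKB2 at 0.37, UTP22 at 0.27, CKA1 at −0.60 and CKB1 at −1.22 on Y5 minus G0, where IFH1 was at 0.77. On Y10 minus G0, CKA2 was at 0.58, CKB2 at 0.10, CKB1 at 0.06, RRP7 at 0.05 and UTP22 at −0.55. CKB1, a regulatory subunit of casein kinase 2, was the 1 partner at least 1 log2 unit from G0, on Y5 only.

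The mRNAs of glycolytic and ribosomal protein genes, the kinds of genes these activators are known to switch on, mostly lay on the other side of 0. Both lists were drawn up by function or gene symbol, and control of each listed gene by these activators was not tested. Of 21 glycolytic and fermentative genes, 15 were at least 1 log2 unit lower on Y5 than on G0 (10.5% of all genes) and 0 higher (4.02%). Their median was −1.62, where the set of activators had 0.77. Of 15 measured on Y10, 11 were at least 1 lower than on G0 (12.1% of all genes), with a list median of −1.57. GLK1, glucokinase (−2.83 on Y5, −2.70 on Y10), and PDC5, a pyruvate decarboxylase (−2.70, −2.77), were the lowest over both arrays, and PFK1 (0.42, −0.61) and PFK2 (0.42, −0.25), the phosphofructokinase subunits, the highest. On G0 all 21 enzymes lay above the array median and TYE7 below it. On Y5 TYE7 at 2.11 was higher than 20 of the 21, all except PFK1 (2.42).

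Of 131 cytosolic ribosomal protein genes, 94 were at least 1 log2 unit lower on Y5 than on G0 (10.5% of all genes) and 0 higher (4.02%). Their median was −1.50. On Y10, 65 of 108 were lower (12.1% of all genes) and 5 higher (6.51%), with a median of −1.29. RPL1A (−3.45, −3.31) and RPL7A (−2.75, −3.89) were the lowest over both arrays, and RPL41A (0.61, 2.04) and RPL22B (0.60, 1.59) the highest. On G0 the ribosomal protein genes had a median of −0.08, close to their activators RAP1 (−0.06), IFH1 (−0.02) and SFP1 (−0.13). On Y5 they had a median of −1.57 with 2 of 132 above 0, while all 7 activators lay above 0, where 47.2% of all genes did. Of the activators, GCR1 read 0.08 on Y5, within its technical SD of 0.284.

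**Figure D3:**
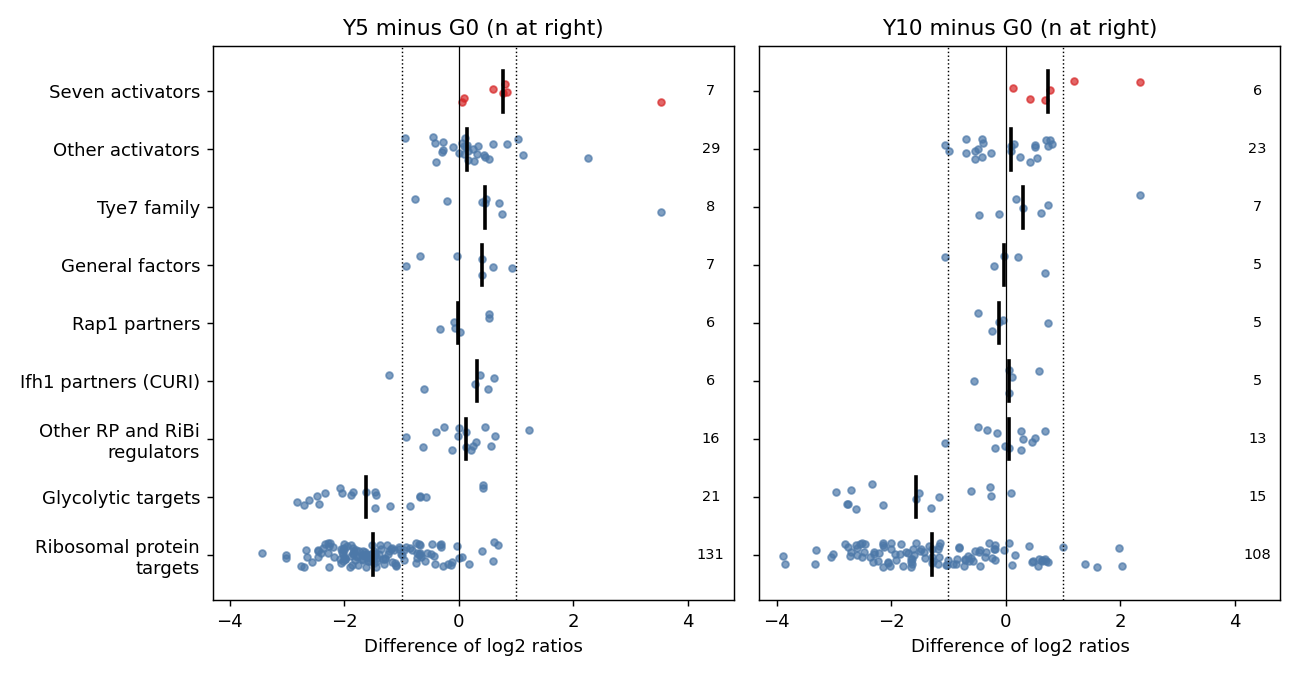
Difference of log2 ratios (x axis) for Y5 minus G0 and Y10 minus G0 in the 7 activators (red) and in 8 lists of related genes (blue), 1 point per gene, with the number of genes at the right, the list median as a black bar and dotted lines at 1 log2 unit in either direction. RP stands for ribosomal protein and RiBi for ribosome biogenesis, and vertical scatter within a row carries no value. The activators have medians of 0.77 and 0.73, against −1.62 and −1.57 for glycolytic genes and −1.50 and −1.29 for ribosomal protein genes.

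Likeness was measured as the Euclidean distance between the log2 ratios of 2 genes over the 3 arrays, among 4425 genes with all 3 values. Nearest to TYE7 was YCX1 (YDL206W) at a distance of 0.564, with −1.25 on G0, 1.61 on Y5 and 0.73 on Y10. PUN1, a plasma membrane protein, followed at 1.13, then BFR2, a ribosome assembly factor, at 1.22, PUF6, an RNA-binding protein, at 1.25 and FPR4, a nuclear prolyl isomerase, at 1.26. These genes share a value below the median on G0, the highest value on Y5 and the intermediate value on Y10, each with a smaller range than TYE7. The median distance from TYE7 over all genes was 2.84.

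SFP1 had closer neighbours, with SUR1, of sphingolipid synthesis, at 0.179, AZF1, a zinc finger transcription factor, at 0.201, YER158C at 0.256, NIC96, a nuclear pore protein, at 0.273 and IPT1, of sphingolipid synthesis, at 0.313, against a median distance of 1.52. SUR1 read −0.27, 0.61 and 1.07 and AZF1 −0.01, 0.76 and 1.23 on G0, Y5 and Y10. The pattern of SFP1, near the median on G0 and higher on Y5 and Y10, was thus matched within the technical SD by several genes, whereas for TYE7 only YCX1 came within 1 log2 unit of distance.

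**Figure D4:**
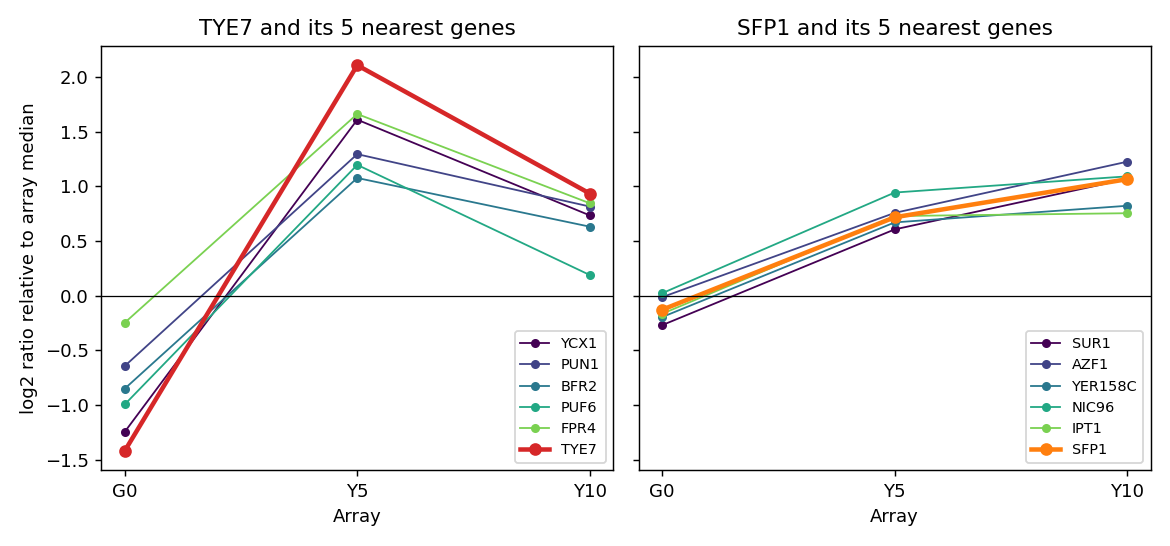
Log2 ratio relative to the array median (y axis) on the 3 arrays (x axis) for TYE7 and SFP1 (thick lines) and the 5 genes at the smallest distance from each (thin lines), where lines join values of separate arrays. TYE7 reaches 2.11 on Y5, above its 5 neighbours, and SFP1 lies among its neighbours on all 3 arrays.

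Gene length, which the choice of genes did not use, was taken from the RefSeq gene table of assembly R64. TYE7 is the shortest of the 7 at 876 bp, below the median of 1261.5 bp over the genes on the array. The others are longer, from GCR2 at 1605 bp and SFP1 at 2052 bp to IFH1 at 3258 bp, and the 3109 bp of GCR1 include its intron. Across genes of 1 array, longer genes had higher ratios, with Spearman's rho of 0.317 (G0), 0.478 (Y5) and 0.344 (Y10), and rho was 0.124 for Y5 minus G0 and −0.04 for Y10 minus G0. These describe 5548, 5563, 4446, 5546 and 4427 genes, which share an array and are not independent. For Y10 minus Y5 rho was −0.22 (4435 genes). TYE7 lies at percentile 29.2 of length. The part of length in the values of the 7 genes, and in their contrast with the glycolytic and ribosomal protein genes, was not tested.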

How the data were processed

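The table the authors deposited holds 8832 spots on 3 two-colour arrays, each with 1 log ratio per array. The values were taken as log2, as deposited by the authors, although none of base, centring, background correction and direction is given in the sources used here. Gene names came from the platform annotation, with 6623 spots of 1 symbol and 2209 without, and all 5574 genes matched RefSeq R64 by gene identifier. The G0 array had 8700 values, Y5 8734 and Y10 7822, and without channel intensities the number of arrays limits the precision. On Y10, 32 sectors of 252 rows were renumbered to sectors of 276 rows and the first 192 spots of each were used (6008 spots). Each array was centred on its median and spots of a gene were averaged (Python 3.11.15, pandas 2.3.3). No test was possible with 1 array per group. Differences of at least 1 log2 unit were called. The code for renumbering and averaging was run on simulated data built with the same sector layout. That run checks the code and cannot show whether the Y10 array has this layout. The 7 genes and all lists were chosen with earlier results of these data known. Named were all 7 genes, every gene of lists of at most 8 and the called genes of longer regulator lists. Also named were the 2 lowest and 2 highest glycolytic and ribosomal protein genes by mean difference from G0, and the 5 genes nearest to TYE7 and to SFP1. CRF1, DOT6, MRS6 and the Y10 minus G0 value of GCN4 were named after their values were seen.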

Additional observations from a re-analysis of the deposited data

How the results depend on the processing

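No paired analysis was possible because each group had 1 array. The Y5 minus G0 difference of TYE7 stayed between 3.21 and 5.09 over 8 alternatives, most of which could not test it. Those that could were scaling to one spread (3.21), quantile normalization (3.695) and sector centring (3.26). TYE7 had 1 spot per array, so choosing, trimming or pairing spots left its value as it was, and natural logarithms only rescale it. Its Y10 minus Y5 call was lost with sector centring (−0.95), after quantile normalization (−0.81) and with the arrays scaled to one spread (−0.80), and the Y10 minus G0 call of SFP1 with sector centring (0.91), under which GCR2 gained one (1.12). Read as natural logarithms, all values grow by one factor, to 5.09 and 3.40 for TYE7 on Y5 and Y10 minus G0. SFP1 (1.22), GCR2 (1.17) and IFH1 (1.11) then also pass 1 log2 unit on Y5 minus G0, and GCR2 (1.12) on Y10 minus G0. The counts of all genes at least 1 log2 unit higher and lower grow to 584 and 976 for Y5 minus G0. They grow to 621 and 880 for Y10 minus G0 and to 409 and 501 for Y10 minus Y5. With the Y10 rows as deposited, where Y10 was unrelated to the other arrays, Y10 minus G0 was 1.38 for TYE7, −0.26 for RAP1, −0.74 for FHL1 and 2.01 for SFP1, and Y10 minus Y5 was −2.14, −0.86, −0.80 and 1.17. The same numbering gave 435 of 5083 genes higher for Y10 minus G0, and of 5096 genes 574 higher and 617 lower for Y10 minus Y5. In the values reported these were 288 of 4427 genes, and 167 and 235 of 4435. Quantile normalization gave 369 of 4424 genes lower for Y5 minus G0, against 583 of 5546. For Y10 minus Y5, sector centring gave 146 of 4435 genes lower, and adding the last 60 spots of each Y10 sector 261 of 5219 higher. Differences taken within the same spot, an alternative chosen after seeing the data, could not change TYE7 or SFP1, which had 1 spot per array. For GCR1 they moved Y10 minus G0 from 0.43 to 0.77. The number of genes compared differs between some of these settings, and the cause of the shifts was not tested. FHL1 changed sign on Y5 minus G0 in 3 of 8 alternatives and GCR1 in 1 of 8, both close to 0. Channel intensities were not used here, so signal over background limits these values to an unknown extent.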
